A study of Sorghum bicolor with 16 samples.

Results

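Of 29033 genes in the expression table of 2 sweet sorghum strains, 85 were expressed nearly only in the roots of M-81E. A gene belonged to this set when its lowest FPKM over the 4 M-81E libraries was at least 2 and at least 4 times its highest FPKM over the 4 Roma libraries. FPKM counts sequenced fragments of a transcript, scaled by transcript length and library size. The strain difference of these 85 genes was therefore what chose them, and it is described here without a test. The same rule applied the other way round gave 156 genes for Roma, called the Roma set, and 9964 genes had an FPKM of at least 2 in every M-81E library, whatever their level in Roma. These 9964 genes, of which the 85 are a part, are used below as the background for annotation and peaks.

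Roots at the three-leaf phase were profiled by m6A-seq, in which RNA fragments bearing N6-methyladenosine are pulled down with an antibody (IP) and sequenced beside unselected fragments (input). The groups were M-81E with salt stress, M-81E control, Roma with salt stress and Roma control, where M-81E is labelled salt-tolerant and Roma salt-sensitive. Each combination of group and library type had 2 samples, 16 in all, which the labels call biological replicates. The sources used here give neither the salt dose nor how long it acted. The 8 expression columns, 2 per group, are assigned by the labels to the IP samples, but which of the library types the FPKM was computed from is not stated, so expression and enrichment cannot be told apart. In whole roots, fewer cells of a type and less RNA per cell cannot be told apart either.

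Lines of 1 crop species differ in which members of some gene families they express, and receptor-like kinases and nucleotide-binding resistance proteins, which sense pathogens and the cell surface, are families known for such variation, often as tandem copies. Dirigent proteins direct the coupling of phenylpropanoid radicals into lignans, and cinnamyl-alcohol dehydrogenases make the alcohols from which lignin of the root cell wall is built. The m6A mark is written on messenger RNA by a methyltransferase complex, and in plants it lies mostly in the last exon and the 3' UTR.

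The libraries held a summed FPKM of 325987 to 377097. Depth is unknown, since read totals were not used here. Spearman's rho between the replicates of a group, across genes, was 0.864 in M-81E salt, 0.807 in M-81E control, 0.904 in Roma salt and 0.912 in Roma control. M-81E control replicate 2 also had the lowest summed FPKM over 151 root genes, 377 shoot genes and 242 genes of dividing cells. The root sum was 2314 there and 2676 to 3961 in the other 7 libraries, and no gene of the 3 lists was listed at 0 in all 8 libraries. The shoot list held none of the 85 genes, the root list 1 and the dividing-cell list 2. M-81E control replicate 2 held the highest of the 4 M-81E values for 46 of the 85 genes. The same count over all genes was not made, so it is not read as particular to the set. The part of this library in the results was not tested, and values without it are given where they differ.

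The 85 genes covered a wide range of expression. Their mean FPKM in M-81E ran from 2.33 to 550, with a median of 8.90, against a median of 0.301 in Roma. In M-81E, 27 genes had a mean of 2 to 5, 34 a mean of 5 to 20 and 24 a mean of 20 or more. Their highest Roma value stayed under 1 for 61 genes and reached 1 or more for 24, the highest of all being 41.5. Together they held 0.906 and 0.659% of the summed FPKM in M-81E salt and 0.752 and 0.846% in M-81E control, against 0.0419 and 0.0446% in Roma salt and 0.0366 and 0.0346% in Roma control. Within M-81E the highest value was more than 4 times the lowest for 6 genes.

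**Figure D1:**
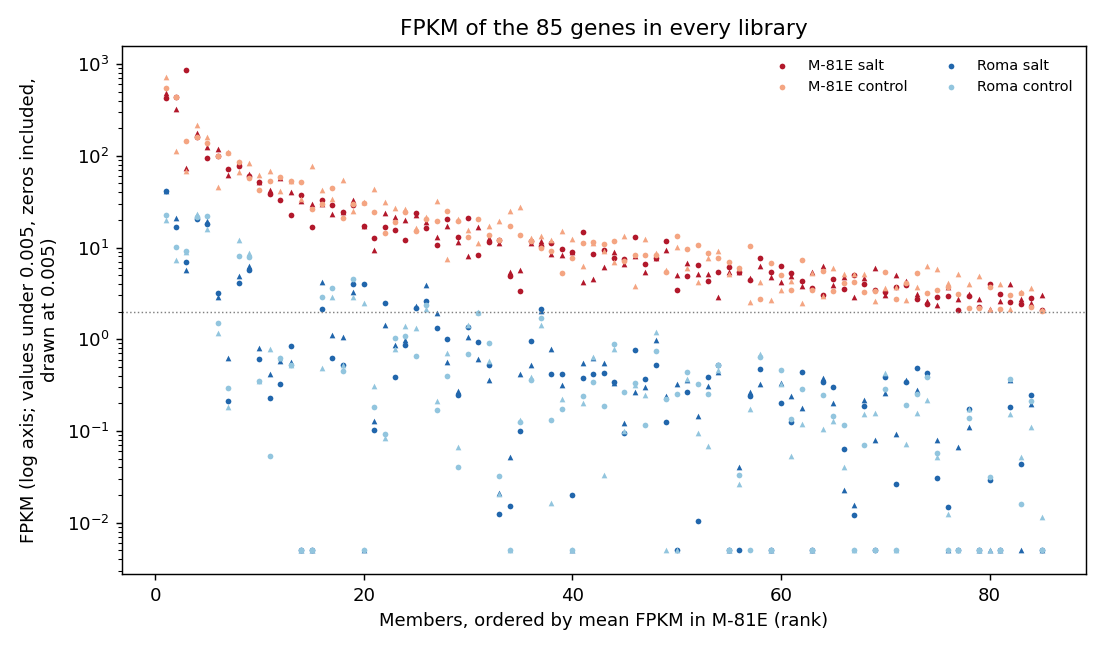
FPKM (log axis) of the 85 genes in each of the 8 libraries, ordered by mean FPKM in M-81E. Circles are replicate 1 and triangles replicate 2. All red and orange points of M-81E lie above the dotted line at an FPKM of 2, and the blue points of Roma lie at most at 41.5, many at the lower edge, where values listed at 0 are drawn.

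At the edge of the rule lay SORBI_3002G144966, annotated to the small ribosomal subunit, whose lowest M-81E value was 4.04 times its highest Roma value, and SORBI_3007G188701 at 4.12 times. Just outside lay SORBI_3007G028700 at 3.99 and SORBI_3003G073380 at 3.98 times. By level, SORBI_3004G061701 entered with a lowest M-81E FPKM of 2.05 and SORBI_3007G181300 with 2.07, whereas SORBI_3001G343601 at 1.87 and SORBI_3008G061201 at 1.72 stayed out.

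Several of the most abundant of the 85 genes encode proteins of the cell surface or of transport, beside transcription regulators and an unannotated gene given below. SORBI_3005G069700, annotated as a plasma membrane serine/threonine kinase of cell surface receptor signalling, had an FPKM of 432 and 489 in M-81E salt and 551 and 728 in M-81E control. In Roma the same gene had 41.5 and 41.3 in salt and 22.4 and 20.2 in control. Its neighbour SORBI_3005G069800, with the same annotation, had 439 and 326 in M-81E salt and 437 and 114 in M-81E control, against 16.7 and 21.2 in Roma salt and 10.2 and 7.38 in Roma control. Both genes were above 7 in every Roma library. The third kinase of this annotation, SORBI_3004G211000, had 14.9 and 4.18 in M-81E salt and 11.2 and 6.27 in M-81E control, and at most 0.546 in any Roma library.

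SORBI_3002G338500, annotated as a sugar:proton symporter of the plasma membrane, which carries hexoses into the cell, had 864 and 72.9 in M-81E salt and 144 and 68.7 in M-81E control. Its Roma values were 7.00 and 5.73 in salt and 9.10 and 8.87 in control. The value of 864 stood alone, and the other salt library lay between the control libraries. SORBI_3001G025201, annotated to metal ion transport and homeostasis, had 95.2 and 126 in M-81E salt and 138 and 161 in M-81E control, against 18.0 and 19.7 in Roma salt and 22.3 and 15.8 in Roma control. The other transport genes were an ionotropic glutamate receptor with calcium channel activity (SORBI_3004G013200), an ABC transporter by its pathway entry (SORBI_3006G054200) and an amino acid transporter (SORBI_3008G058400).

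SORBI_3001G086000 is annotated to the outer face of the plasma membrane, to cellulose microfibril organization and to the response to salt stress. It had 72.5 and 61.3 in M-81E salt and 106 and 109 in M-81E control, against 0.214 and 0.628 in Roma salt and 0.293 and 0.182 in Roma control. Of the 10 genes with the highest mean in M-81E, it and SORBI_3007G047400 had no Roma value as high as 1. Both salt libraries of M-81E lay below both control libraries, a difference that did not pass the salt test below.

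Transcription regulators were 6 of the 85 genes (7.06%, against 9.44% of the background). SORBI_3001G352400, a nuclear regulator annotated to rhythmic processes, had 161 and 179 in M-81E salt and 161 and 215 in M-81E control, against 20.2 and 22.8 in Roma salt and 21.8 and 23.2 in Roma control. Replicates and treatments lay close together in each strain. SORBI_3007G047400, a transcription factor annotated to the circadian clock, as a negative regulator, and to salt and abscisic acid responses, had 52.2 and 51.3 in M-81E salt and 42.0 and 62.5 in M-81E control. In Roma it had 0.607 and 0.802 in salt and 0.349 and 0.353 in control. SORBI_3001G411400, a phosphorelay response regulator of the circadian rhythm, had 60.9 and 63.6 in M-81E salt and 57.6 and 83.0 in M-81E control, against 5.63 and 6.29 in Roma salt and 7.96 and 8.81 in Roma control. The third gene with the circadian term, the transcription factor SORBI_3010G275700, was lower, with 6.31 and 4.25 in M-81E salt and 4.99 and 3.47 in M-81E control, and at most 0.460 in Roma.

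The term for circadian rhythm was picked out after its values had been seen. It was carried by 3 of the 85 genes and by 27 of the 9964 background genes. Over the 39 genes that carry it and whose mean FPKM reached 1, the log2 ratio of strain means, M-81E over Roma, had a median of -0.08. Of these genes 1 belonged to the Roma set.

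The planned list of flavonoid synthesis was widened to phenylpropanoid, lignin and lignan genes. Genes of the widened list numbered 6 of 85 (7.06%), against 103 of 9964 background genes (1.03%). They include 3 genes with dirigent-type activity, which guides stereospecific coupling, out of 6 such genes in the background. SORBI_3002G100832 had 22.8 and 40.0 in M-81E salt and 52.7 and 53.0 in M-81E control, against 0.849 and 0.558 in Roma salt and 0.527 and 0.521 in Roma control. SORBI_3008G168800 had 9.51 and 6.09 in M-81E salt and 10.9 and 9.09 in M-81E control, and SORBI_3002G093600 had 4.34 and 5.15 in M-81E salt and 8.74 and 7.62 in M-81E control. Neither exceeded 0.551 in a Roma library. Over all 22 dirigent-annotated genes whose mean FPKM reached 1, the median log2 ratio of strain means was 0.59. Within this family SORBI_3005G101600, SORBI_3005G101800 and SORBI_3006G122800 were listed at 0 in 1 library of a group and above 20 in the other.

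Further along this pathway, SORBI_3008G106800, annotated as a pinoresinol and lariciresinol reductase, which reduces lignans, had 33.0 and 29.7 in M-81E salt and 29.6 and 42.0 in M-81E control. Its Roma values were 2.13 and 4.16 in salt and 2.91 and 0.485 in control. SORBI_3010G072100, a cinnamyl-alcohol dehydrogenase of lignin synthesis, had 10.7 and 13.0 in M-81E salt and 19.6 and 32.0 in M-81E control. In Roma it had 1.32 and 1.94 in salt and 0.168 and 0.210 in control. The sixth gene, SORBI_3003G354900, is a histone-binding protein annotated to regulation of lignin synthesis and to cold acclimation, with 12.1 to 26.1 in M-81E and 0.863 to 1.38 in Roma. The list thus combines dirigent-type genes, enzymes of lignan and lignin synthesis and a regulator.

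Genes annotated to defense or ADP binding also numbered 6 (7.06%, against 3.99% of the background). SORBI_3002G225700, a transcription factor annotated to ethylene signalling and to responses to chitin and fungus, had 37.0 and 32.4 in M-81E salt and 51.7 and 34.2 in M-81E control, and was listed at 0 in all 4 Roma libraries. SORBI_3005G128800, with terms for root development, microtubule binding and bacterial defense, had 33.1 and 56.7 in M-81E salt and 59.1 and 41.0 in M-81E control, and at most 0.629 in Roma. SORBI_3007G188800 and SORBI_3005G154300 carry ADP binding and defense response, the terms of nucleotide-binding resistance proteins, with 7.62 to 8.70 and 4.95 to 9.70 in M-81E and at most 1.20 and 0.436 in Roma. The kinase SORBI_3008G099600 and the glutamate receptor complete the group. By pathway entry, 9 of the 85 genes were assigned to plant-pathogen interaction (10.6%, against 4.51% of the background), a pathway picked out after the counts had been seen.

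Other lists were thinly represented or empty. No gene of proteolysis and ubiquitin was found, although this list held 7.28% of the background, and none of the peroxidases and glutathione transferases, which held 1.26%. The lists for terpenes and transposons also had no member, with 0.0803 and 0.0301% of the background. Ribosome and translation and RNA processing had 1 gene each, the same SORBI_3002G144966, against 5.66 and 4.07% of the background. Protein kinases numbered 5 (5.88%, against 7.58%), oxidoreductases 5 (5.88%, against 5.04%), transport 5 (5.88%, against 6.03%), and salt, water deprivation and abscisic acid 3 (3.53%, against 4.21%). Nucleosome and mitosis had 3 genes (3.53%, against 2.63%), protein folding and heat 3 (3.53%, against 1.96%) and glycosyl enzymes 2 (2.35%, against 1.29%). The remaining 50 genes were in none of these lists. The lists of protein folding and of circadian rhythm were added after values had been seen. The planned list of terpene and flavonoid synthesis was split and its flavonoid part widened as given above. Mitosis was joined to the planned nucleosome list. Whether these changes came before or after values were seen is not recorded.

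A larger share of the 85 genes than of the background lacked annotation. No GO term, the standard label of gene function, was given for 29 of 85 (34.1%, exact 95% interval 24.2 to 45.2), against 6.01% of the background and 32.7% of the Roma set. Gene numbers outside the usual steps of 100 were found for 19 (22.4%, interval 14.0 to 32.7), against 3.70% of the background and 16.0% of the Roma set. A description shared with another gene was found for 13 (15.3%, interval 8.40 to 24.7), against 2.79% of the background and 11.5% of the Roma set. The Roma set, chosen by the mirrored rule, was thus like the 85 genes in these features. Intervals cover counting error only. Of the unannotated genes, SORBI_3008G065800 was the most abundant, with 101 and 118 in M-81E salt and 100 and 45.7 in M-81E control, against 3.19 and 2.90 in Roma salt and 1.50 and 1.16 in Roma control.

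**Figure D2:**
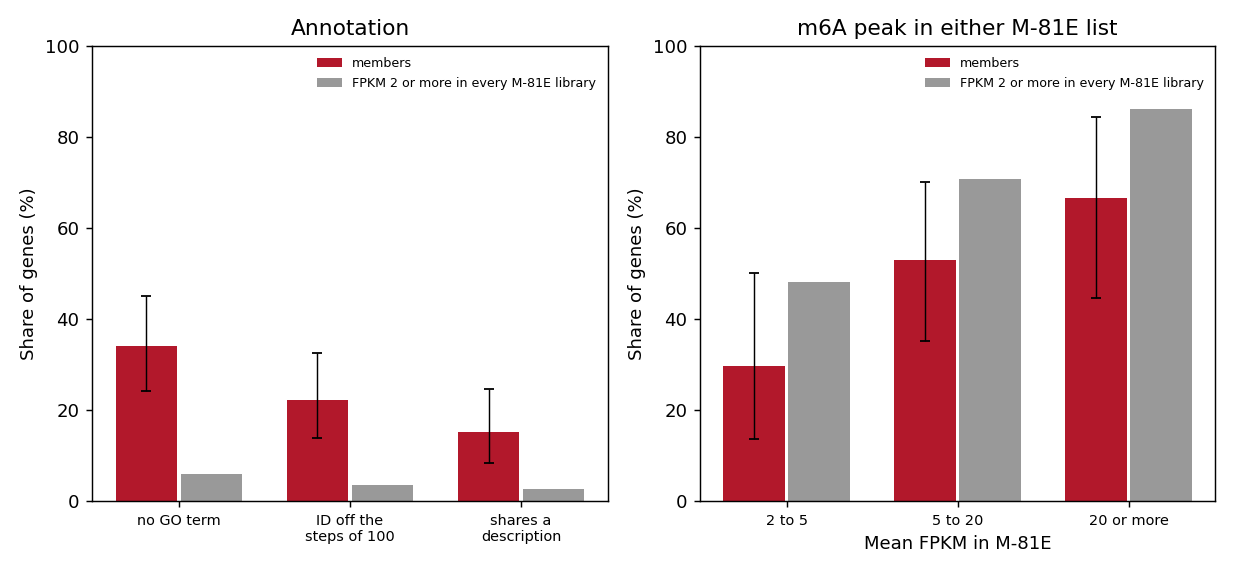
Shares of the 85 genes (red, with exact 95% binomial intervals) and of all genes with an FPKM of at least 2 in every M-81E library (grey). Left, genes without a GO term, with a gene number off the steps of 100, and with a description shared with another gene, where red exceeds grey each time. Right, genes with an m6A peak in either M-81E list by mean FPKM in M-81E, where red lies below grey in each class. In the lowest class, with 29.6% against 48.2%, the interval of red includes the grey share.

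Among the 85 genes 7 were listed at 0 in all 4 Roma libraries, 15 in 1 to 3 of them, and 63 were above 0 in each. The 7 genes were SORBI_3002G225700, SORBI_3005G066300, SORBI_3002G410200, SORBI_3001G026600, SORBI_3004G112600, SORBI_3007G100032 and SORBI_3007G109301. After the transcription factor SORBI_3002G225700 the most abundant was SORBI_3005G066300, with 16.8 and 29.9 in M-81E salt and 26.2 and 77.0 in M-81E control. It shares its description with 6 genes beside it on chromosome 5, each of which was listed at 0 in 1 library of some group and above 0 in the other, and with SORBI_3009G165100, expressed in both strains. Its level is uncertain, since reads of near-identical copies can be split between genes. The other 5 had M-81E values of 2.16 to 6.89 and no GO term.

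Some genes with a shared description had their counterpart in the Roma set. SORBI_3010G165700, annotated as a DNA helicase of telomere maintenance and repair, had 12.0 and 11.2 in M-81E salt and 12.1 and 19.5 in M-81E control, and at most 0.0325 in Roma. SORBI_3004G230300, on another chromosome but with the same description, had at most 0.0122 in M-81E, against 11.0 and 12.7 in Roma salt and 6.85 and 9.11 in Roma control. SORBI_3002G073250 had 2.93 to 6.22 in M-81E and at most 0.375 in Roma, while SORBI_3007G116766 was listed at 0 in M-81E and had 6.60 to 8.37 in Roma. The third gene with this description, SORBI_3010G176550, was expressed in both strains, with 6.43 to 7.52 in M-81E and 5.27 to 7.04 in Roma. SORBI_3006G036566 and SORBI_3010G145500 share a description and were both among the 85. Levels of such pairs are uncertain, as the counting could assign reads to either copy.

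In gene order along the chromosomes, 4 of the 85 genes had another of the set within 5 places (4.71%, interval 1.30 to 11.6). They formed 2 adjacent pairs, and 8 genes had 1 within 10 places (9.41%). In the larger Roma set, 34 of 156 genes had another of that set within 5 places (21.8%) and 44 within 10 (28.2%). Chromosome 5 held 10 of the 85 genes, 2.33% of its 430 background genes, and chromosome 8 held 11, or 2.25% of 488. Chromosome 7 followed with 1.40% and chromosome 2 with 1.11%, and over all chromosomes the share was 0.854%. The lowest shares were those of chromosomes 6 and 3, with 0.455 and 0.474%.

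The first pair, the kinase genes SORBI_3005G069700 and SORBI_3005G069800, lay in a row of genes with the same kinase annotation on chromosome 5. The deposited lists place SORBI_3005G069700 from 8083872 to 8085723 and SORBI_3005G069800 from 8086049 to 8091371, on a build that no label or header names. The next genes, SORBI_3005G069900 and SORBI_3005G070000, belonged to the Roma set. SORBI_3005G069900 had 0.112 and 0.374 in M-81E salt and 0.425 and 0.250 in M-81E control, against 52.3 and 57.3 in Roma salt and 44.2 and 45.8 in Roma control. SORBI_3005G070000 had 4.67 and 2.85 in M-81E salt and 2.65 and 7.57 in M-81E control, against 85.2 and 49.0 in Roma salt and 62.2 and 62.3 in Roma control. In each strain a different adjacent pair of kinase genes was the higher one, between SORBI_3005G069500 and SORBI_3005G070200, which were expressed in both. The row was described after its values had been seen, and the sources used here do not say how reads of similar genes were counted.

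**Figure D3:**
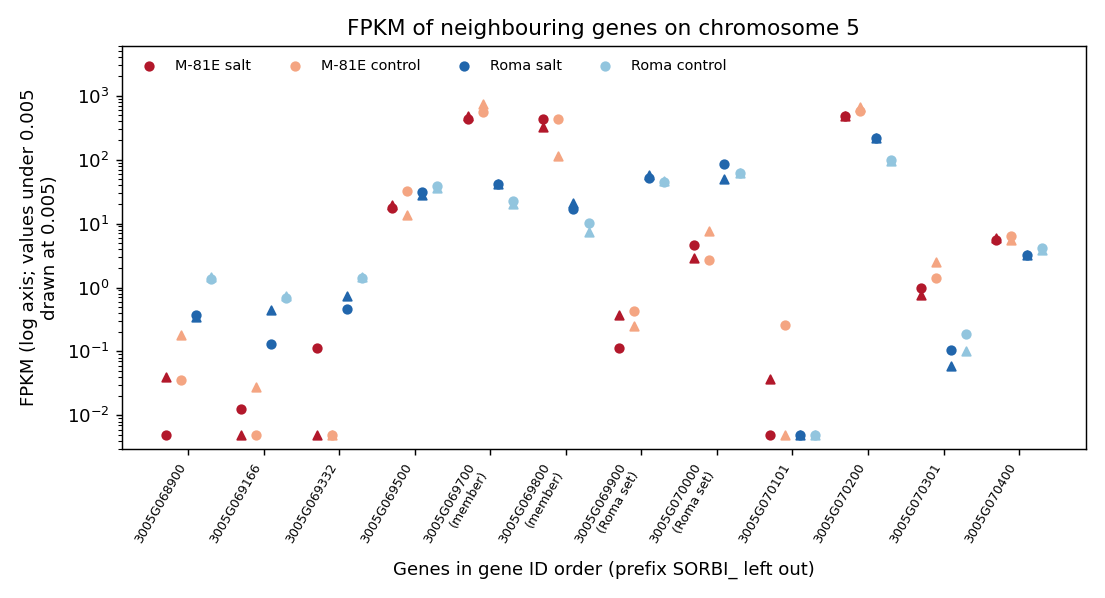
FPKM (log axis) of 12 consecutive genes on chromosome 5 in each library, circles for replicate 1 and triangles for replicate 2. The 2 genes of the M-81E set have red and orange points above 100, and the 2 genes of the Roma set beside them have blue points above 40 and red and orange points under 10.

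The second pair was SORBI_3007G188701 and SORBI_3007G188800 on chromosome 7, of which SORBI_3007G188800 is the ADP-binding defense gene above. SORBI_3007G188701, with a plant-pathogen pathway entry, had 8.24 and 16.7 in M-81E salt and 20.7 and 11.2 in M-81E control, against 0.939 and 0.610 in Roma salt and 1.92 and 2.00 in Roma control. Within 10 places lay SORBI_3007G108200 and SORBI_3007G109301, and SORBI_3008G105900 and the lignan reductase SORBI_3008G106800.

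A gene of the Roma set lay within 5 places of 10 of the 85 genes (11.8%, interval 5.79 to 20.6). The kinases SORBI_3005G069700 and SORBI_3005G069800 both count here, through the same genes of the Roma set. The share over all genes was not computed, so the count is not read as clustering. Besides the kinases, SORBI_3009G071000, an acid phosphatase, which releases phosphate, had 3.48 and 4.99 in M-81E salt and 13.3 and 10.1 in M-81E control, and at most 0.328 in Roma. SORBI_3009G071300, an acid phosphatase 2 places away, had 5.84 and 1.62 in M-81E salt and 4.20 and 1.21 in M-81E control, against 44.8 and 29.5 in Roma salt and 80.7 and 87.6 in Roma control. Directly beside the 85 genes stood 166 other genes, of which 78 reached a mean FPKM of 1. Their log2 ratio of strain means had a median of 0.005, against -0.27 over all 16280 genes of that level. It was above 1 for 16 of the 78 (20.5%, against 6.43% of the 16280 genes) and under -1 for 6 (7.69%, against 10.2%).

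Salt changed few of these genes in M-81E by test. All 85 entered the fit, since the rule lifts their mean above the filter. With limma on log2(FPKM + 1) and Benjamini-Hochberg adjustment over 16280 genes, 1 of the 85 passed an adjusted p of 0.05, and it fell, against 0.491% of all genes called in either direction, 0.283% lower and 0.209% higher. SORBI_3005G217700, annotated only to the extracellular region, had 4.84 and 5.41 in M-81E salt, against 17.2 and 25.3 in M-81E control. Its mean fell to 5.12 ± 0.403 in salt, against 21.2 ± 5.75 in control (SD, n = 2 each), a limma log2 change of -1.84 (SE 0.235, adjusted p = 0.0464). In Roma it had 0.0150 and 0.0521 in salt and was listed at 0 in both control libraries. The SE pools the spread over all 4 groups, and the Roma libraries, where the rule holds this gene near 0, hardly vary. With only the M-81E groups fitted the limma adjusted p was 0.459. The call was lost in 11 of 14 alternatives, with adjusted p of 0.0927 to 0.459 in these, among them each that left out an M-81E salt library or a Roma library. Without M-81E control replicate 1, 17 of the 85 passed, 13 lower and 4 higher, when 3104 of all 16280 genes were called.

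The changes of the other genes did not pass. SORBI_3001G343500, annotated as a steroid dehydrogenase of the endoplasmic reticulum, had 3.37 and 5.62 in M-81E salt, against 13.7 and 27.4 in M-81E control (limma log2 change -1.93, adjusted p = 0.158). The glutamate receptor SORBI_3004G013200, an ion channel annotated to calcium transport and wounding, had 12.7 and 9.43 in M-81E salt, against 24.6 and 43.5 in M-81E control (limma log2 change -1.50, adjusted p = 0.168). The acid phosphatase SORBI_3009G071000 had a log2 change of -1.28 and the cinnamyl-alcohol dehydrogenase SORBI_3010G072100 of -1.03, with limma adjusted p of 0.195 and 0.263. In each of these 4 genes both salt libraries lay below both control libraries. No gene of the set was called higher. The sugar symporter SORBI_3002G338500 had the largest positive log2 change, 1.33, with 1 salt library at 864 and the other between the control libraries. The largest positive values with both salt libraries above both control libraries were those of SORBI_3002G144966, with 7.66 and 6.24 in M-81E salt, against 2.76 and 4.24 in M-81E control (log2 change 0.84), and of SORBI_3004G299600, annotated to the plasma membrane, with 11.8 and 9.39, against 5.43 and 5.64 (log2 change 0.82). Then came SORBI_3008G065800 at 0.68, SORBI_3003G006833 at 0.54 and SORBI_3007G112700 at 0.47.

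As a whole the set leaned below control. Of the 85 genes 24 had a positive log2 change, against 7368 of all 16280 genes tested. The median was -0.15, against -0.05 over all genes tested. Unlike the set, all genes tested include genes with an FPKM under 2 in M-81E libraries. Salt changes were not compared with those of the background genes, so the part of expression level in the differences given here was not tested. Positive changes numbered 32, against 8358, without M-81E control replicate 2, and 29, against 6994, without replicate 1. Both salt libraries lay below both control libraries for 29 (34.1%, against 19.4% of all genes tested) and above both for 7 (8.24%, against 18.3%). Without M-81E control replicate 2 the salt libraries lay below the remaining one for 41 (48.2%, against 31.6%), and without replicate 1 for 52 (61.2%, against 46.8%). At an unadjusted p of 0.05, in either direction, limma gave 16 (18.8%, against 12.8%). This excess did not hold, since it gave 7 (8.24%, against 12.9%) with a pseudocount of 0.1 and 6 (7.06%, against 6.09%) with only the M-81E groups fitted. With the filter at a mean FPKM of 5, 8 of the 38 genes of the set that were kept had a positive log2 change, against 4145 of 9702. The medians were then -0.28 and -0.09.

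**Figure D4:**
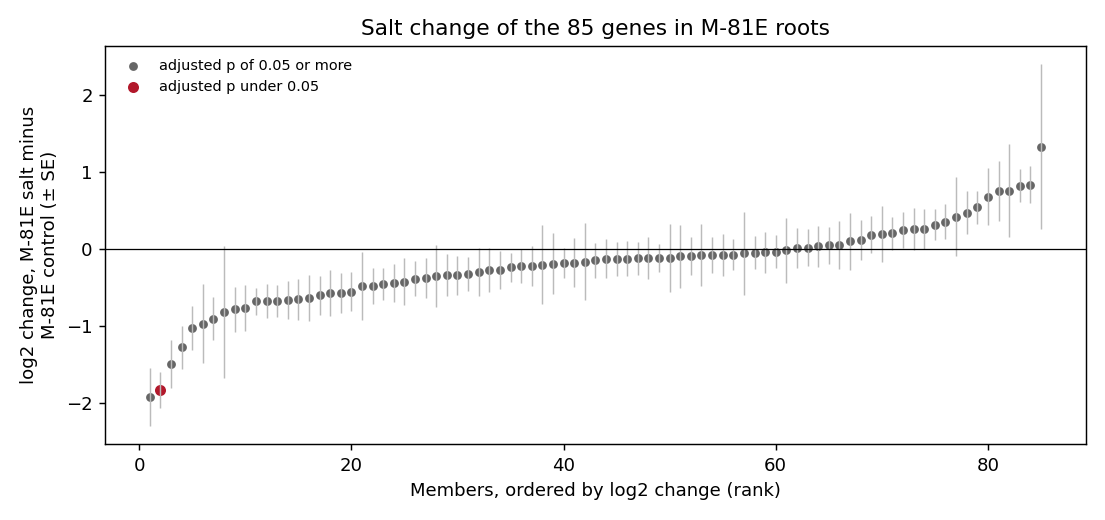
The log2 change of the 85 genes, M-81E salt minus M-81E control, with standard errors from limma, ordered by size. Of the 85 points, 24 lie above 0, and the red point, SORBI_3005G217700 at -1.84, is the one with an adjusted p under 0.05.

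The salt change in Roma, and its difference from that in M-81E, are not reported for these genes. The rule caps their Roma values, and they passed the filter through M-81E, so on this scale neither contrast could inform on a salt response in Roma.

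Peaks of m6A were listed for 39 of the 85 genes in M-81E salt and 39 in M-81E control (45.9% each, interval 35.0 to 57.0), against 66.7 and 64.7% of the background. In either M-81E list there were 42 (49.4%), against 72.3% of the background, in both lists 36, in salt alone 3 and in control alone 3. The share was larger at higher expression, as in the background, and below that of the background in each class. A peak was found for 8 of 27 genes with a mean M-81E FPKM of 2 to 5 (29.6%, interval 13.8 to 50.2, against 48.2%). It was found for 18 of 34 genes with a mean of 5 to 20 (52.9%, interval 35.1 to 70.2, against 70.9%). With a mean of 20 or more it was found for 16 of 24 (66.7%, interval 44.7 to 84.4, against 86.2%). In the lowest class the interval thus includes the background share. The genes without a peak in either M-81E list include the abundant SORBI_3001G086000, SORBI_3009G159700 and SORBI_3008G014601.

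Most peaks of the 85 genes lay in the 3' UTR. Of 54 peaks in M-81E salt 63.0% were placed in the 3' UTR and 27.8% in other exons, against 79.7 and 14.1% of the background peaks. Of 52 in M-81E control the shares were 63.5 and 28.8%, against 74.1 and 16.4%. These shares count peaks, and a gene can hold several. SORBI_3001G225100, a gene without GO term, alone held 7 in salt and 6 in control, and 3 rows of the control list for SORBI_3004G112600 overlap in 1 stretch. The median fold enrichment, a value the authors give per peak for IP relative to input, was 7.69 in M-81E salt and 11.0 in M-81E control, against 13.6 and 12.8 over the background peaks.

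The strongest peaks of M-81E salt were placed in the 3' UTR. SORBI_3007G108200, a gene without annotation, had a fold of 88.0 in M-81E salt and 71.4 in M-81E control at the same place, chromosome 7 from 39079572 to 39079870, at an FPKM of 2.94 to 4.10 in M-81E. SORBI_3008G121240 had 59.3 in salt and 32.5 in control, SORBI_3006G054200 39.6 and 50.6, SORBI_3005G225500 39.1 and 31.1, and SORBI_3002G180666 36.7 and 48.3. SORBI_3005G209600, a kinesin, which moves along microtubules, had 31.6 and 13.2. Among the abundant genes the rhythm-annotated regulators carried 3' UTR peaks, with a fold of 29.5 in salt and 21.1 in control for SORBI_3001G352400, whose 5' UTR peak had 17.3 and 50.9, 11.3 and 16.6 for SORBI_3001G411400 and 9.16 and 12.6 for SORBI_3007G047400. The kinases had weak exon peaks, 5.38 and 3.02 for SORBI_3005G069700 and 1.81 and 2.20 for SORBI_3005G069800.

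Of the 36 genes with a peak in both M-81E lists, the strongest fold was higher in salt for 15 (41.7%, against 55.6% of the background). The strongest peak was taken in each list whatever its place, so the 2 values of a gene can come from different places. SORBI_3001G352400 counts as lower in salt, with 29.5 at the 3' UTR in salt and 50.9 at the 5' UTR in control. Its 3' UTR peak in control had 21.1. The lists give 1 value per group and no replicates, so none of these differences has a test. A few were large. SORBI_3001G387900, annotated to protein folding and the heat response, had a 5' UTR peak with a fold of 3.81 in salt and 115 in control, and SORBI_3003G282901 one with 2.93 in salt and 87.3 in control. SORBI_3002G225700 had an exon peak of 2.44 in salt and 18.5 in control.

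**Figure D5:**
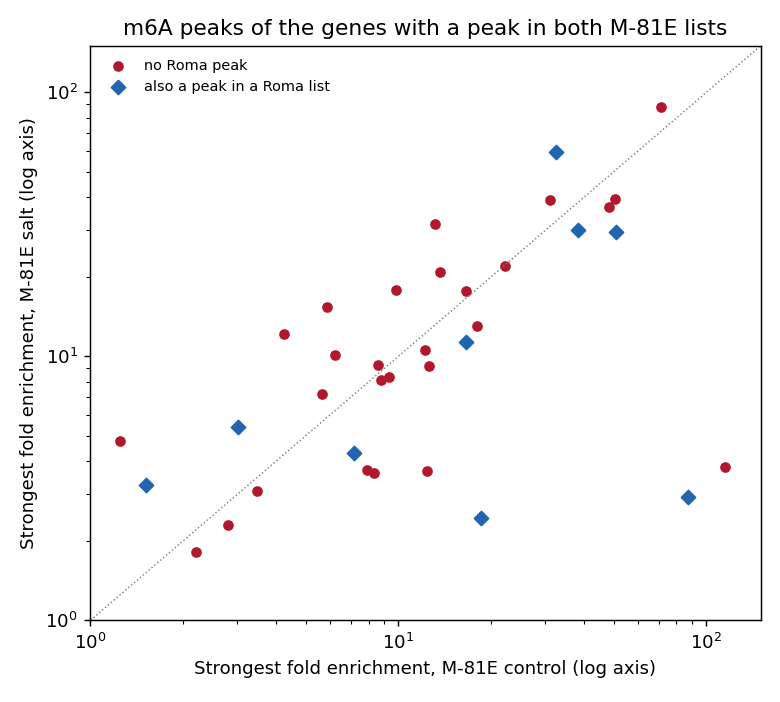
Strongest fold enrichment per gene in M-81E salt (vertical) and M-81E control (horizontal), both on log axes, for the 36 genes with a peak in both lists. Blue diamonds mark the 9 that also had a peak in a Roma list, and most points follow the dotted line of equality, while SORBI_3001G387900 and SORBI_3003G282901 lie far to its right.

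In Roma 10 of the 85 genes had a peak in either list. They were 9 in salt (10.6%, against 72.6% of the background) and 3 in control (3.53%, against 43.9%). The Roma control list was shorter over all genes, with 5949 peaks, against 12080 in Roma salt. The rule caps the Roma level of the 85 genes, so their low shares are not read as a result. SORBI_3001G352400 had its 3' UTR peak in all 4 lists, with a fold of 37.0 in Roma salt and 31.7 in Roma control. SORBI_3002G338500, the sugar symporter, had 1.77 in Roma salt and 3.51 in Roma control at its 3' UTR. Peaks in Roma salt alone were those of SORBI_3001G225100, up to 43.5, SORBI_3003G282901 at 91.6, SORBI_3008G121240 at 21.3, SORBI_3001G025201 at 4.03, SORBI_3002G225700 at 6.84, SORBI_3001G411400 at 3.82 and SORBI_3005G069700 at 2.23. SORBI_3009G040175, a nuclear transferase, had its only peak in Roma control, an exon peak of 70.6 over 60 nucleotides. Its FPKM there was 0.0931 and 0.0830, and that of SORBI_3001G225100 was at most 3.96 in any Roma library. The fold is a ratio of IP to input, so a high fold at a low level does not give the amount of methylated RNA.

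SORBI_3002G225700, the defense transcription factor listed at 0 in all 4 Roma libraries, nevertheless had a Roma salt peak, with a fold of 6.84 on chromosome 2 from 61785839 to 61786045. This overlaps its exon peak in M-81E, which ran from 61785839 to 61786074 in control. Its FPKM of 0 and its peak thus differ on whether fragments of the gene were present in Roma roots. Such genes were not rare, since of 3158 genes listed at 0 in both Roma salt libraries 127 had a Roma salt peak, and in M-81E salt 115 of 2827. An FPKM of 0 is therefore given here only as a listed value.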

How the data were processed

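The labels' protocols describe poly(A) RNA fragmented to about 100 nucleotides, an m6A antibody and strand-specific paired-end libraries. Per the file headers, the authors deposited expression as FPKM per gene, in 1 table with 8 library columns, matched to samples by their descriptions. Per the file headers, the deposited fold enrichment is a ratio of IP to input per peak, in 4 lists, 1 per strain and treatment. Named in the submitters' processing notes, with no role for any, are HISAT2, StringTie, edgeR, ChIPseeker, cutadapt and FastQC. The peak caller, the pooling of replicates and the build are not stated there.

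The rule was applied to the FPKM values in Python 3.11.15 (pandas 2.3.3, numpy 2.4.6, scipy 1.17.1, figures with matplotlib 3.10.9). Salt contrasts were fitted with limma 3.58.1 in R 4.3.3 on log2(FPKM + 1) for the 16280 genes whose mean over the 8 libraries reached an FPKM of 1, with 1 mean per strain and treatment and an adjusted p threshold of 0.05. A log2 change on this scale understates changes of low genes. A simulated M-81E contrast on 16280 genes recovered 10% of the genes shifted by 1 on the log2 scale, 40% at 2, 64% at 3 and 80% at 4, with 5 false ones among 102 calls. Gene order is that of the gene IDs on each chromosome, over 28960 genes. Annotation is that of the deposited table, and group lists were word searches in its GO terms.

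The 85 genes, the lists and the tests were chosen with earlier results of these data known. Named genes were the 10 with the highest mean in M-81E, those listed at 0 in Roma, those past the salt threshold or with the 5 largest changes each way among genes whose salt libraries both lay on 1 side of both control libraries, genes in runs of neighbours, the strongest peaks, genes with a Roma peak, the genes nearest the thresholds and up to 4 per annotated list. Genes named for a shared description, and the kinase and phosphatase neighbours, were chosen after their values were seen. No gene or peak sequence was used here. Alternatives tried were quantile scaling, a filter at an FPKM of 5 or none, 0.1 as pseudocount, fitting the M-81E groups alone, a replicate block, other thresholds of the rule and leaving out each library.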

Additional observations from a re-analysis of the deposited data

How the results depend on the processing

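The number of genes in the set moved with the thresholds, from 85 to 203 at a ratio of 2, 51 at a ratio of 8, 46 at a lowest FPKM of 5 and 112 at 1. Leaving out 1 library from the rule gave 89 to 127, the most without M-81E control replicate 2. In that set of 127, an alternative chosen after seeing the data, 40 genes had no GO term and 62 a peak in an M-81E list. Genes with another of the set nearby numbered 4 within 1 place and 8 within 10, and 0 at a ratio of 8. A peak in an M-81E list was found for 38 genes at a fold enrichment of at least 4 and for 25 at a ratio of 8, and all peaks were already in exons or UTRs.

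The count of genes called for salt in M-81E, 1 by limma, was 0 with a pseudocount of 0.1 (at an unadjusted p of 0.05, 8.24% of the set against 12.9% of all genes), with no filter (17.6 against 10.8%), with a filter of 5 (15.8 against 13.3%), with a replicate block (16.5 against 13.1%) and with only the M-81E groups fitted (7.06 against 6.09%), and it was 1 with quantile scaling. Leaving out each replicate in turn gave 0 to 17, where a group left with 1 library is assumed to vary like the others, and the 17, without M-81E control replicate 1, came with 36.5% of the set and 38.1% of all genes at an unadjusted p of 0.05. The median salt change stayed between -0.28 and -0.13 over the 14 alternatives, the -0.28 being that of the 38 genes kept by the filter of 5. The count with both salt libraries below control came to 41 when M-81E control replicate 2 was left out and to 52 when replicate 1 was, both chosen after seeing the data. Of the 136 values of single named genes under the alternatives, none changed sign, 121 stayed on their side of the threshold, 4 passed it and 11 no longer did, the last all of SORBI_3005G217700. The causes were not tested. Replicate numbers showed no sign of pairing the samples: deviations of same-numbered libraries from their group means correlated at -0.0376 to 0.0384. The block lowered calls over all genes to 22, against 80. It also leaves fewer degrees of freedom for the spread, so this fall cannot decide on pairing.

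With 2 libraries per group and unknown depth, changes near a log2 of 1 were seldom recovered in simulation, where all libraries of a gene shared 1 spread.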
